A study of Mus musculus with 10 samples.

Results

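The regions described here are stretches of mouse chromatin that were detected as accessible in bone marrow progenitors without IRF8 and in none of the wild-type (WT) stages measured beside them. Peaks of all 10 lists on chromosomes 1 to 19 and X were merged where they overlapped by 1 bp or more, and a region was chosen by its detection: a peak in both IRF8KO MDP lists and in none of the 8 WT lists. Of 114366 merged regions, 2014 met this rule, which is 1.76% of all regions and 4.64% of the 43424 regions found in both IRF8KO lists. Since detection chose them, their presence in one genotype and absence in the other is a description and carries no test. A region missing from a list fell short of that list's threshold. The lists do not show that its DNA was closed.

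Open chromatin was measured by ATAC-seq, in which a transposase cuts accessible DNA and tags the ends for sequencing. Cells came from the bone marrow of C57BL/6 mice, lacked lineage markers (Lin-), and were enriched on magnetic columns before flow sorting, with 2 libraries in each of 5 groups. The WT groups were long-term hematopoietic stem cells (LT-HSC; CD117+ Sca-1+ CD135- CD48- CD150+), lymphoid-primed multipotent progenitors (LMPP; CD117+ Sca-1+ CD135+), monocyte-dendritic cell progenitors (MDP; Sca-1- CD117+ IL-7R- CD115+) and common dendritic cell progenitors (CDP; as MDP but with intermediate CD117 and with CD135). The fifth group, IRF8KO MDP, was sorted with the MDP markers and is labelled IRF8-deficient. The labels give neither the allele, nor the age of the mice, nor which or how many animals a library came from.

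IRF8 belongs to the interferon regulatory factors, which control gene transcription. It binds DNA mostly together with partners such as PU.1, at elements that pair an ETS site with an IRF site. It is needed for the development of monocytes and of several dendritic cell types, and mice without it accumulate granulocytes. C/EBP factors, above all C/EBP alpha and C/EBP epsilon, drive the granulocyte fate, and IRF8 is known to restrain C/EBP alpha in progenitors.

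Few of the regions lay at promoters. Only 9 of the 1949 members that the promoter table could check spanned a listed start site of a protein-coding gene. The genes were Pparg, Nlrp12, Sirpb1c, Mgam, Slco2b1, Gtsf1l, Trak1, Spata31d1d and 2310061N02Rik. For the 5 of these windows that also held a match to a C/EBP or GATA motif, the 250 bases before the start site are printed below from RefSeq (GRCm38.p6), read 5′ to 3′ on the gene's strand. They are shown for these matches. The other 4 covered start sites had neither motif in the 250 bases. Capitals mark matches to TTGCNNAA, a C/EBP half-site pair, or in Mgam to AGATAA, the site of GATA factors, on either strand. The same windows were searched for 14 motifs in all. GAGGAAGT (PU.1), TGTGGTT (RUNX) and TGANTCA (AP-1) gave no match within them. Matches to other motifs were left unmarked. These were AACNGT (MYB) in Nlrp12, Mgam and Trak1, and GGAAGT (ETS) in Nlrp12 and Trak1. CCACCC (KLF) was in Gtsf1l, Mgam and Trak1, and AAATCA (GFI1) in Mgam. The windows lie at chr6:115421816-115422065 (plus strand, Pparg), chr7:3249741-3249990 (minus, Nlrp12), chr6:40628581-40628830 (plus, Mgam), chr2:163089602-163089851 (minus, Gtsf1l) and chr9:121366708-121366957 (plus, Trak1).
Pparg: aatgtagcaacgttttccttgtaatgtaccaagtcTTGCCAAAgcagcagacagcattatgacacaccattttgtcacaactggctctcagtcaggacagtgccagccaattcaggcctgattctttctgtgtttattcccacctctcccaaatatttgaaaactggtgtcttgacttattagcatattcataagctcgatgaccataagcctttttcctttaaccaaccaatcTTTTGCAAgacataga
Nlrp12: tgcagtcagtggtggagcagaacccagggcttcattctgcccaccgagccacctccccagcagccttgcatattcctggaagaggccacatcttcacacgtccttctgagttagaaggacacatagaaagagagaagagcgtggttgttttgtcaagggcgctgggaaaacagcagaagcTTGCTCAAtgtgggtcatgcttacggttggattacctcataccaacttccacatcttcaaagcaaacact
Mgam: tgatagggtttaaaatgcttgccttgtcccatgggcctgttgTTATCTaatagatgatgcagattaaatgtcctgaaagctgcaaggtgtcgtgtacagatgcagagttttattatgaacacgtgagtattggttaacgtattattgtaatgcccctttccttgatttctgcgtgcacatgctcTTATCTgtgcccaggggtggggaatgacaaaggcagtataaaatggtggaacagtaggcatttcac
Gtsf1l: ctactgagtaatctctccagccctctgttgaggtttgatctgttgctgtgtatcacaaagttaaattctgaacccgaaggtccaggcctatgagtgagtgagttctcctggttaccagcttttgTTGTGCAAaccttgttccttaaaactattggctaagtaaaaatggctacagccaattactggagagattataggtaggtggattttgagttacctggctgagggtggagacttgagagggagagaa
Trak1: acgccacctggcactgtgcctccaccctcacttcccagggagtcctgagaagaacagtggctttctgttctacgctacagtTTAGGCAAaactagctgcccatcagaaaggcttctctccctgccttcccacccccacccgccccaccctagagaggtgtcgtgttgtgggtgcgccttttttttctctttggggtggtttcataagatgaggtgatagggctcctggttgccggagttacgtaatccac

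Pparg encodes a nuclear receptor that senses fatty acids and is required for alveolar macrophages and fat cells. The region over its internal start site (chr6:115420583-115422116, 1534 bp, inside the gene) stood at 42.1% and 35.6% of the rows of the IRF8KO lists, earlier than most members. The nearest WT peak was 11.8 kb away. A second member lay 2.59 kb after that start site, and the last 21.2 kb outside the gene. Pparg had 18 merged regions in all. The knockout libraries detected 6 and 7 of them, WT MDP libraries 10 and 12, CDP libraries 12 and 10, LMPP libraries 5 and 4, and LT-HSC libraries 1 and 5. Of these 18, a set of 6 was found in all 4 MDP and CDP libraries of WT mice and in neither knockout library, and 5 of those were found in no other library. At this gene, then, the knockout lists held fewer regions than WT MDP, and 3 of those they held were at positions that no WT list held.

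Nlrp12, a cytoplasmic receptor of the NLR family expressed in myeloid cells, and Sirpb1c, of the signal regulatory protein beta family, had few regions of any kind. Each had 3 merged regions, 2 of them members. At Nlrp12, both knockout libraries detected 2 regions, 1 LT-HSC library detected 1, and the other 7 WT libraries detected none. The member over its start site (chr7:3249531-3250166) stood at 43.3% and 45.9% of the rows, with the nearest WT peak 25.4 kb away, and the other lay inside the gene (chr7:3220146-3220789). At Sirpb1c, both knockout libraries detected all 3 regions, CDP replicate 2 detected 1, and the other 7 WT libraries detected none. Its members covered the start site (chr3:15848190-15848818) and a place 1.61 kb outside the gene (chr3:15849830-15850457). Gtsf1l, which encodes a small zinc finger protein, had 2 members of 6 regions, 1 at each end of the gene. The knockout libraries detected 3 and 4 regions there, and the WT libraries 0 to 3.

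Mgam encodes maltase-glucoamylase, a starch-digesting enzyme, and Slco2b1 an organic anion transporter. Each had 1 member among 6 regions, over its start site. Trak1, an adaptor for the transport of mitochondria, had 1 of 23. These 3 members stood unevenly in the replicates: Mgam at 80.4% and 52.0% of the rows, Slco2b1 at 68.2% and 80.9%, and Trak1 at 93.1% and 52.4%.

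Over all gene types, 31 member regions held at least 150 bases of a promoter window (250 bases before to 50 after a start site), and these windows belonged to 31 genes, 12 of them protein-coding. The motif counts did not enter the choice of regions, so they could be compared. TTGCNNAA was present in the windows of 10 of these 31 genes (32.3%, Wilson 95% interval 18.6 to 49.9). Among genes with a window in any merged region it was present in 9.64% of 13784, and in all 26794 genes with a window in 12.3%. Windows in regions found in both CDP libraries and nowhere else had it in 8 of 70 genes (11.4%), and windows in LMPP-only regions in 11 of 77 (14.3%). The members' share was higher by 20.8 percentage points than the CDP-only share (Newcombe 95% interval of the difference 4.15 to 39.3) and by 17.97 points than the LMPP-only share (1.30 to 36.6). The 10 genes were Pparg, Nlrp12, Gtsf1l, Trak1, Mgam (whose match lies in the 50 bases after the start site), Tmigd1 and 4 genes not listed as protein-coding.

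The window search covered 14 motifs, which overlap in part: GAGGAAGT holds the ETS letters GGAAGT, and TTGCGCAA is a form of TTGCNNAA. No adjustment was made over them, and the number of windows was small. AACNGT, a MYB site, was in the windows of 16 genes (51.6%) against 31.4% for CDP-only windows (difference 20.2 points, -0.21 to 39.2) and 28.6% for LMPP-only windows (23.0 points, 3.03 to 41.7). TGTGGTT, a RUNX site, was in 7 (22.6%), against 8.57% (14.0 points, -0.28 to 31.8) and 10.4% (12.2 points, -2.04 to 30.1). GAAANNGAA, the spaced pair that interferon regulatory factors bind, was in the windows of 1 gene (3.23%) against 13 of 70 for CDP-only windows (18.6%; difference -15.3 points, -26.3 to -0.42) and 7 of 77 for LMPP-only windows (9.09%; -5.87 points, -14.8 to 7.90). GGAANNGAA, an ETS-IRF composite, was in 4 (12.9%) against 10.0% (2.90 points, -9.16 to 19.6) and 5.19% (7.71 points, -3.03 to 24.0). GAGGAAGT was in 3 (9.68%) against 11.4% (-1.75 points, -13.2 to 14.4) and 1.30% (8.38 points, -0.14 to 23.6). TGANTCA was in 5 (16.1%) against 12.9% (3.27 points, -10.1 to 20.8) and 1.30% (14.8 points, 4.15 to 31.4), so its difference from LMPP-only windows, like those of TTGCNNAA and AACNGT, had an interval without 0. Windows in regions detected in both WT MDP libraries and neither knockout library gave such intervals for TTGCNNAA (8.33%; 23.9 points, 9.83 to 41.7), AACNGT (24.0 points, 6.55 to 41.0), TGTGGTT (16.0 points, 4.36 to 33.3), TGANTCA (10.7 points, 1.18 to 27.3) and TTGCGCAA. AGATAA, the site of GATA factors, was in 4 (12.9%), AAATCA (GFI1) in 6 (19.4%), CCACCC (KLF) in 13 (41.9%), CAGCTG (E protein) in 9 (29.0%), GGAAGT in 11 (35.5%), TTGCGCAA in 1 and TGACGTCA (CRE) in 0. Median GC content was 49.7% in the member windows, 51.3% in CDP-only windows, 54.3% in LMPP-only windows, 57.7% in windows of regions held by WT MDP and not by the knockout, 60.7% in windows of any region and 53.0% over all windows. The AACNGT share fell at each step as median GC content rose through these sets. It was 51.6% in member, 31.4% in CDP-only, 29.1% in all, 28.6% in LMPP-only, 27.6% in lost and 23.5% in any-region windows, where lost means held by WT MDP and not by the knockout. TTGCNNAA was also most frequent in the member windows, which had the lowest GC content, but was less frequent in CDP-only than in LMPP-only windows. The part of GC content in the shares was not tested. The other members lie outside the windows, and their sequence was not searched.

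The mirrored rule gave a count for each other group: both of its libraries and none of the other 8. It found 1488 LT-HSC-only, 4324 LMPP-only, 413 WT MDP-only and 5278 CDP-only regions. As a share of the regions in both lists of a group, these were 5.08%, 8.04%, 0.778% and 8.95%, against 4.64% for IRF8KO MDP. WT MDP, CDP and the knockout MDP each had the others of these groups beside them to share regions with. The part of such sharing in the counts was not tested.

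**Figure D1:**
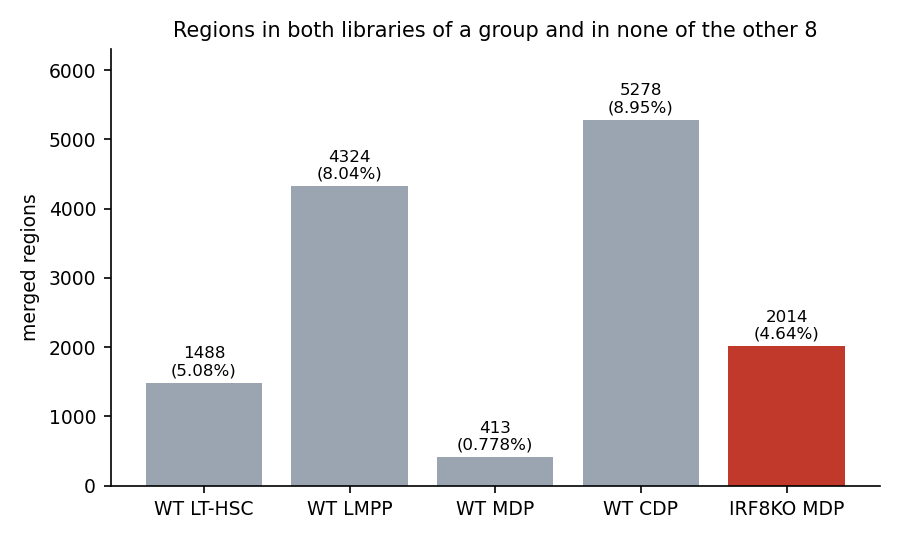
Number of merged regions (vertical axis) detected in both libraries of a group and in none of the other 8, with the share of the group's regions found in both lists in parentheses. IRF8KO MDP (red) had 2014 such regions, fewer than LMPP and CDP and more than LT-HSC and WT MDP.

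Just outside the rule were 1221 regions found in both knockout lists and in exactly 1 WT list. WT MDP replicate 1 held 333 of them, WT MDP replicate 2 held 545, the CDP libraries 102 and 41, LMPP 56 and 78, and LT-HSC 4 and 62. Most of the near misses were thus single detections in 1 WT MDP library. Another 1199 regions were found in knockout replicate 1 alone and 2137 in replicate 2 alone. Of 3073 regions in both knockout lists and neither WT MDP list, 1059 were found in another WT library. At least 1 LMPP library held 706 of these, at least 1 CDP library 470 and at least 1 LT-HSC library 437.

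The members stood late in the knockout lists. Each list runs through the chromosomes in order again and again, so rows are sorted by a discrete value that the lists do not name, and ties are listed in genome order. That earlier rows are stronger peaks was assumed. Median row positions were 73.6% of the list in replicate 1 and 69.9% in replicate 2, with the earliest member at 16.3% and 18.7%. All regions in both knockout lists had medians of 43.9% and 41.0%, and those found in all 10 libraries 22.4% and 21.1%. Regions with exactly 1 WT detection, just outside the rule, were at 71.1% and 65.8%. In the first 25% of the rows there were 4 members in replicate 1 and 15 in replicate 2, and 176 members stood in the first 50% of both lists. The last 5 runs through the genome held 29.6% and 24.8% of the members, against 10.4% and 8.09% of all regions in both knockout lists, and 248 members (12.3%) stood there in both lists.

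**Figure D2:**
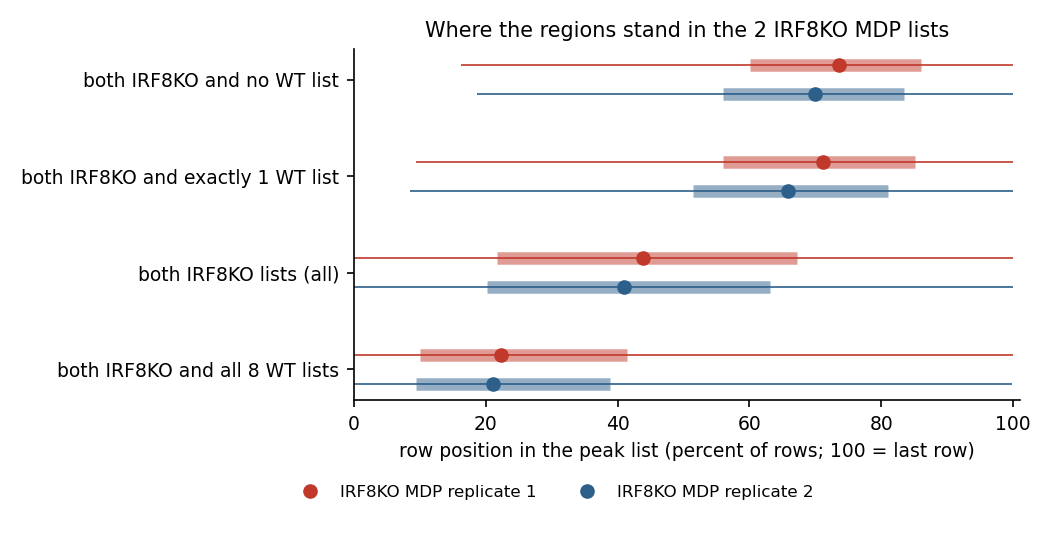
Row position in the IRF8KO MDP lists (horizontal axis, percent of rows) for 4 classes of regions found in both lists. Dots are medians, thick bars the middle 50% of regions and thin lines the full range, with 1 colour per replicate. Regions in no WT list stood late, at medians of 73.6% and 69.9%, close to those with exactly 1 WT detection.

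The order of the members was shared between replicates in part. The Spearman correlation of the row positions was 0.557 over the 2014 members and 0.913 over all 43424 regions in both lists. Other group-only sets also stood late in their own lists. The mean of the replicate medians was 71.7% ± 2.65 (SD, n = 2) for IRF8KO MDP, 71.7% ± 2.04 for LMPP, 74.9% ± 2.75 for CDP, 84.0% ± 1.099 for WT MDP and 62.3% ± 16.3 for LT-HSC. The knockout and LMPP values differed by less than the spread between replicates.

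Members were narrow. Their median width was 621 bp (501 to 2246) against 752 bp for all merged regions and 1701 bp for those found in all 10 libraries. These are widths after merging, and a region merged from the peaks of 10 lists can be wider than a member, merged from 2. Of the knockout peaks in members, 74.5% in replicate 1 and 64.7% in replicate 2 had the commonest width of 501 bp, against 42.4% and 39.1% of all peaks of those lists. LMPP-only and CDP-only regions had medians of 633 and 630 bp. The widest member, 2246 bp, lay at chr16:10754492-10756737, 10.7 kb outside Clec16a, a gene of autophagy and mitophagy.

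The nearest peak of any WT list was a median of 3.55 kb away, and 1668 members (82.8%, Wilson 95% interval 81.1 to 84.4) were over 1 kb from it. The same measure, to the nearest peak of the other groups, was 83.3% for WT MDP-only, 83.9% for CDP-only, 86.3% for LT-HSC-only and 89.1% for LMPP-only regions, so the members' share was the lowest of the 5, with those of WT MDP-only and CDP-only regions inside its interval. For 430 members it was over 10 kb away and for 17 over 100 kb, whereas 15 had a WT peak within 100 bp. Against single WT groups, the median distance was 5.12 kb to WT MDP, 5.49 kb to CDP, 6.00 kb to LMPP and 8.74 kb to LT-HSC. The LT-HSC lists also held the fewest peaks of the WT lists, and the part of list length in these distances was not tested. Of the members, 212 (10.5%) had another member within 10 kb and 519 (25.8%) within 50 kb. The spacing within other sets of regions is not given here, so these shares do not show whether members cluster.

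Regions that the knockout lacked were not gathered around the members. The lists held 10283 regions found in both WT MDP libraries and in neither knockout library (8.99% of all regions), here called lost regions. A lost region lay within 10 kb of 241 members (11.97%, 10.6 to 13.5), of 12.2% of regions with exactly 1 WT detection, and of 17.0% of all regions shared by both knockout lists and at least 1 WT list. Within 50 kb the shares were 44.9%, 49.0% and 53.1%. The group-only sets ranged widely. Within 10 and 50 kb the shares were 12.4% and 40.6% for LMPP-only, 12.2% and 44.2% for LT-HSC-only, and 22.5% and 58.8% for CDP-only regions. Pparg, with 3 members and 7 lost regions, is a single gene named for its covered start site.

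Members lay mainly away from gene ends. Gene ends were used because the gene table gives no strand. Within 1 kb of a protein-coding gene's end there were 74 members (3.67%, 2.94 to 4.59), against 12.6% of all merged regions and 44.6% of regions in all 10 libraries. Lost regions were at 4.88%, which was 1.21 points above the members (members minus lost, -2.06 to -0.21). LT-HSC-only regions were at 5.24% (members minus LT-HSC-only -1.57 points, -3.02 to -0.20). LMPP-only (3.79%), CDP-only (3.58%) and WT MDP-only regions (5.33%) gave intervals of the difference that include 0, for CDP-only -0.82 to 1.12 points. Of the members outside chromosome 18, for which the promoter table held no entry, 0.46% spanned a listed start site, against 0.75% of CDP-only, 1.30% of LMPP-only, 2.51% of lost and 9.79% of all regions. The members' share lay below that of lost regions by 2.05 points (members minus lost, -2.44 to -1.55). Neighbouring regions are not independent, so the intervals cover counting error only.

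**Figure D3:**
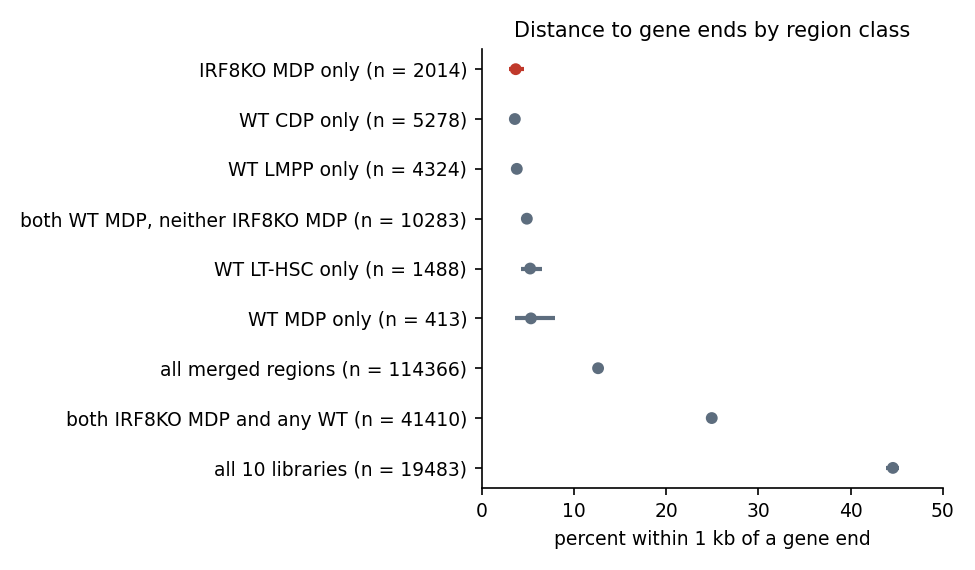
Share of regions within 1 kb of a protein-coding gene's end (horizontal axis, percent) by region class, with Wilson 95% intervals as lines. IRF8KO MDP-only regions (red) stood at 3.67%, near CDP-only regions at 3.58% and far below regions in all 10 libraries at 44.6%.

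Inside a protein-coding gene lay 52.6% of members (50.4 to 54.8) and 55.2% of all regions. A gene within 100 kb was found for 91.0% of members, as for 90.9% of CDP-only regions, but for 84.3% of LMPP-only regions (members minus LMPP-only 6.71 points, 5.01 to 8.33). The median distance to a gene end was 21.3 kb for members, 20.5 kb for CDP-only and 37.2 kb for LMPP-only regions. By chromosome, members were 1.47% (chromosome 2) to 2.15% (chromosome 8) of the regions.

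Members were assigned to the nearest protein-coding gene within 100 kb, which does not show which gene a region acts on. Of 17237 genes with a merged region, 1526 (8.85%) had at least 1 member. Among these, 1282 had 1, 199 had 2 and 45 had 3 or more. Genes with a member were rich in regions of all kinds, with a median of 10 against 3 for genes without one, and 50.6% of them also had a lost region against 29.5% of the others. A gene with more regions has more chances to hold a member and a lost region, and genes with equal numbers of regions were not compared.

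Of the 12 genes with the most members, 4 were loci where both knockout libraries detected more regions than any WT library by 2 or more, and 8 were loci where the knockout counts were close to or among those of the WT libraries. Ednra, which encodes the endothelin receptor type A, had 5 members of 12 regions. The knockout libraries detected 10 and 9 of these 12, WT MDP libraries 0 and 2, both CDP libraries 0, LMPP libraries 4 and 5, and LT-HSC libraries 1 and 3. Both knockout libraries stood above all 8 WT libraries, and LMPP held more of the locus than WT MDP and CDP. Its members lay at chr8:77695517-77696025 and chr8:77713509-77714292 inside the gene and at 13.1, 46.7 and 50.9 kb before the start site. The last of these, chr8:77774744-77775863, was the earliest listed, at 39.8% and 36.7% of the rows.

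Rhoj, a gene known from endothelial cells, also had 5 members of 12 regions. The knockout libraries detected 11 and 9, both WT MDP libraries 4, CDP libraries 3 and 2, both LMPP libraries 3, and LT-HSC libraries 1 and 3. A pair of members stood side by side before the gene (chr12:75291548-75292216 and chr12:75292935-75293719), and 3 lay 5.83, 31.8 and 79.0 kb after the start site. Akap12, a scaffold that anchors protein kinase A, had 4 members of 11 regions, with 3 to 6 detected in the WT libraries and 10 in each knockout library. Colec12, a scavenger receptor of the collectin family, had 3 of 7, with 0 to 2 detected in the WT libraries and 4 in each knockout library. At each of these 4 genes the knockout libraries did not overlap with the WT libraries. The genes were ranked on members, and by the rule each member counts in both knockout libraries and in no WT library. With the members set aside, none of these genes had both knockout libraries above every WT library. The separation thus came from the regions chosen by the rule and is a description. The share of all genes with such a separation is not given here.

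At the other 8 genes, members were a smaller part of the regions, and LT-HSC replicate 1 held the fewest regions or tied for the fewest, from 1 of 19 at Dgkh to 11 of 70 at Arhgap26. Sox5, a transcription factor gene, had the most, 6 of 52 regions, all 6 inside the gene and 5 of them within one stretch (chr6:143858377-143901534). Knockout libraries detected 18 and 23 regions there and WT libraries 9 to 27. Rad51b, a gene of DNA repair by recombination, had 5 of 38, and Foxn3, a forkhead repressor, 5 of 61. Dgkh, a diacylglycerol kinase, had 4 of 19, Sgip1, a regulator of endocytosis, 4 of 34, and Rbms1, an RNA-binding protein, 4 of 37. Tshz2, a zinc finger repressor, had 4 of 40 and Arhgap26 4 of 70. At all 8, the knockout counts fell within the range of the WT counts, or above it by at most 2 regions.

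**Figure D4:**
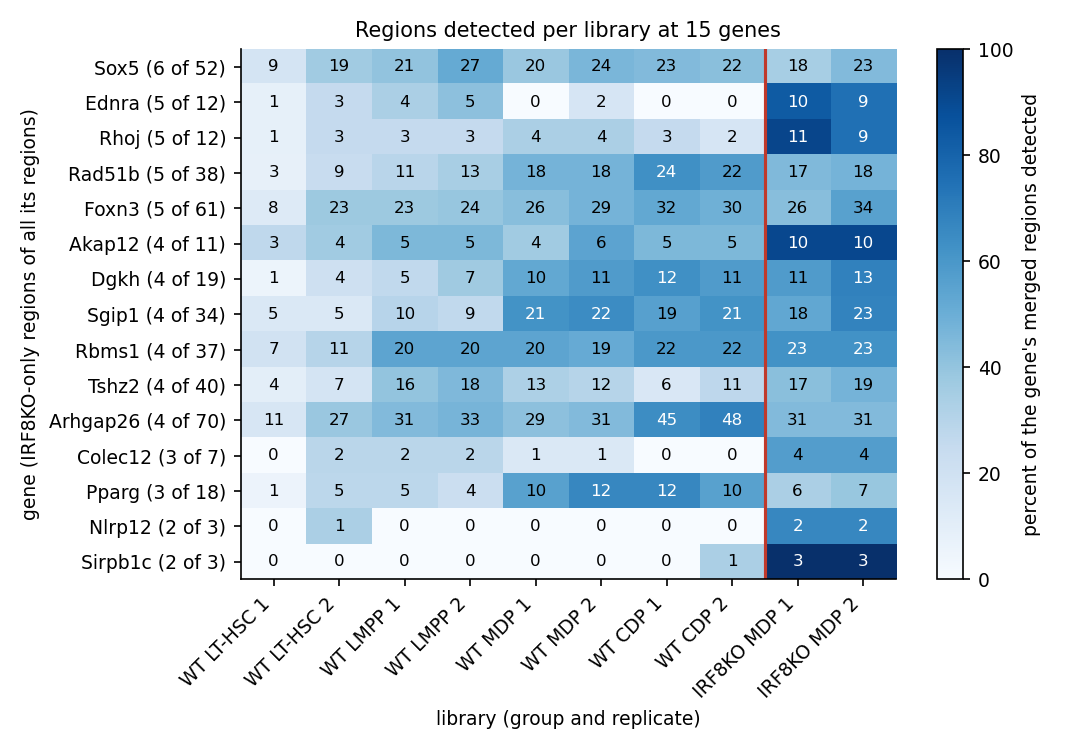
Number of merged regions detected per library (numbers in cells) at the 12 genes with the most IRF8KO-only regions and at Pparg, Nlrp12 and Sirpb1c; shading gives the percent of the gene's regions detected, and the red line sets off the knockout libraries. At Ednra, Rhoj, Akap12 and Colec12 both knockout libraries were above every WT library, and at Pparg both were below every WT MDP and CDP library. By the rule, each IRF8KO-only region counts in both knockout libraries and in no WT library. Without these regions, none of Ednra, Rhoj, Akap12 and Colec12 had both knockout libraries above every WT library.

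Of the 244 genes with 2 or more members, 11 had members as at least 50% of their regions, a cut-off chosen after the values were seen. Besides Nlrp12, Sirpb1c and 2310061N02Rik they included Mrgpra2b, an orphan receptor of the Mas-related family (2 of 3), Cldn34a, a claudin (2 of 3), Faim2, an inhibitor of Fas-mediated cell death (2 of 3), Pigu, of the complex that attaches GPI anchors (2 of 4), and Rbmx, an RNA-binding protein (2 of 4). No gene with 2 or more members had members alone.

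By mean position over both lists, the earliest member, at 16.3% and 19.8% of the rows, lay 23.7 kb outside Gm50595 (chr2:75427832-75428759), and no WT peak stood within 35.5 kb of it. Next came regions inside Jazf1 (chr6:52861042-52861863, at 21.2% and 22.0%), a zinc finger gene, 10.8 kb before Lmo1 (chr7:109185451-109186614, at 23.6% and 21.1%), a LIM-domain transcription cofactor, and inside Tmtc1 (chr6:148381180-148381846, at 23.2% and 22.0%), an O-mannosyltransferase. Among the 12 earliest there were also members inside Farp1, Dlgap1, Ptpre, a receptor-type tyrosine phosphatase of blood cells, and Clec4a2, an inhibitory C-type lectin of myeloid cells (chr6:123125992-123127777, 1786 bp). Another lay 20.8 kb outside 4933402J07Rik, and 3 had no protein-coding gene within 100 kb.

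By role, the gene lists gave shares of members around that of all regions. Members were 1.75% of all regions with a gene within 100 kb, and the Wilson 95% intervals of 18 of 19 lists included this share. The interval of the granulocyte transcription factor list lay just above it, and no adjustment was made over the 19 lists. Of 209 regions at granulocyte transcription factor genes, 8 were members (3.83%, 1.95 to 7.37), spread over 6 of 14 genes. With genes assigned within 20 kb, 3 of 14 had one. Cebpb and Ets1 had 2 members each, and Cebpa, Cebpd, Runx1 and Spi1 had 1 each. Ets1 had 29 regions and Cebpb 23, and the share of the list without either gene is not given here. Cebpe, the C/EBP factor of late granulocyte maturation, and Gfi1, a repressor needed for neutrophils, had 0 members among 3 and 8 regions. The lists were made with earlier results of these data known, and no test was made of any list.

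Cebpa, the gene of the main granulocyte-priming factor, had its member 25.7 kb after the start site (chr7:35144357-35145673, 1317 bp, 23.1 kb outside the gene), between regions detected in most WT libraries, with the nearest WT peak 3.95 kb away. It stood at 86.1% of the rows in replicate 1 and 52.1% in replicate 2. Of its 11 regions, WT MDP detected 7 and 8 and the knockout 7 and 9. Cebpb, induced in emergency granulocyte production, had members 26.3 and 53.8 kb after the start site (chr2:167714956-167715474 and chr2:167742442-167742953). WT MDP detected 17 and 16 of its 23 regions and the knockout 18 and 19. Cebpd had 3 regions, and its member (chr16:15878112-15878753), 8.85 kb outside the gene, had a WT peak 0.56 kb away. Spi1, the gene of PU.1, had a member inside the gene (chr2:91113133-91113806), 1.05 kb from the nearest WT peak. At each of these genes, 1 or 2 regions found only in the knockout lists stood at a locus where WT lists also held regions. Cebpa, Cebpb and Spi1 each had 1 lost region as well, and Cebpd had 0. At Spi1, both WT MDP and both knockout libraries detected 7 regions.

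Cytokine and growth factor receptor genes had 8 members among 270 regions (2.96%, 1.51 to 5.74) over 7 of 24 genes, and housekeeping genes 2 among 74 (2.70%, 0.74 to 9.33). Il1r1, the signalling receptor for interleukin 1, had 2, both inside the gene. Csf2rb, the beta chain shared by the receptors for GM-CSF, IL-3 and IL-5, had 1 of 6 regions (chr15:78355082-78355969), 4.52 kb outside the gene and 12.8 kb from any WT peak. Csf3r, through which granulocyte colony-stimulating factor acts, had 1 of 9, 10.9 kb after the start site (chr4:126035157-126035961). There WT MDP detected 6 and 5 regions, CDP 7 and 8, and the knockout 4 and 4, so the knockout held fewer regions in all. Ifngr1, Flt3, Cxcr4 and Il6st had 1 each.

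Genes of other lineages had members at 0.69% to 2.19% of their regions. Stem cell genes had 6 among 306 (1.96%), 3 of them inside Erg, an ETS factor of stem cells and megakaryocytes. There the knockout detected 28 and 26 of 36 regions and WT MDP 25 and 24. Gata2, of stem and mast cells, had 1 of 8, 11.8 kb before the start site (chr6:88181741-88182455). The mast cell, basophil and eosinophil list had 3 of 137 (2.19%), the monocyte and macrophage list 3 of 227 (1.32%) and the plasmacytoid dendritic cell list 4 of 235 (1.70%). The conventional dendritic cell list had 2 of 283 (0.71%, 0.19 to 2.54), near Flt3 and Irf8. Neutrophil and granule genes had 2 of 119 (1.68%, 0.46 to 5.92), near S100a9, a subunit of calprotectin, and at Csf3r. Shares were also low at neuronal genes (2 of 288, 0.69%), lymphoid priming genes (2 of 280, 0.71%), erythroid genes (1 of 135, 0.74%) and endothelial and stromal genes (2 of 223, 0.90%), all with intervals that include 1.75%. Cell cycle genes had 2 of 193 (1.04%), T and NK cell genes 1 of 94 (1.06%), megakaryocyte genes 2 of 178 (1.12%), antigen processing and lysosome genes 2 of 98 (2.04%) and B cell genes 2 of 95 (2.11%). Interferon response genes had 0 of 111 (interval up to 3.35%). In all, 39 of 316 distinct list genes with a region (12.3%) had a member, against 8.85% of all genes; genes with more regions have more chances to hold one.

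**Figure D5:**
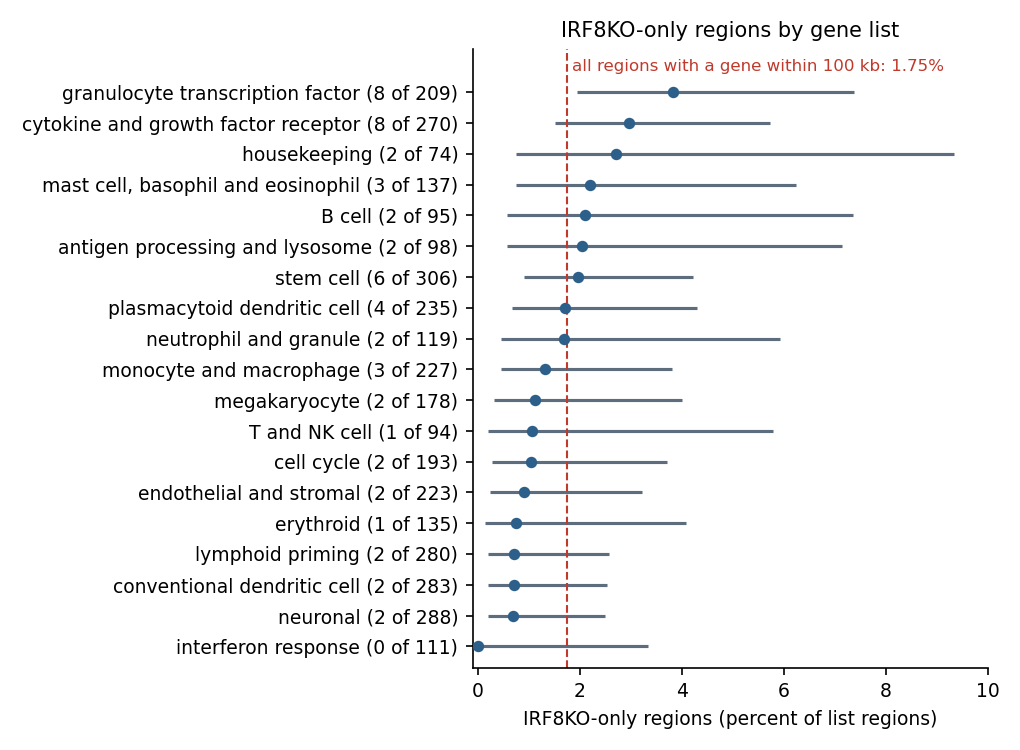
Share of the regions at the genes of each list that were IRF8KO-only (horizontal axis, percent), with Wilson 95% intervals as lines and counts in parentheses. The dashed line marks 1.75%, the share over all regions with a gene within 100 kb; the interval of granulocyte transcription factor genes starts at 1.95% and those of the other 18 lists include the line.

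The Irf8 gene itself had 1 member of 34 regions (chr8:120739489-120740007), inside the gene, 0.59 kb from the nearest WT peak and late in both lists at 81.1% and 92.5% of the rows. Its start site was within a region detected in both knockout libraries, so accessibility there does not check the genotype. Of the genes used for sorting, Kit (CD117), Csf1r (CD115), Il7r, Ly6a (Sca-1), Slamf1 (CD150) and Cd48 had 0 members and Flt3 (CD135) had 1. The Kit start site was detected in all 10 libraries. At Kit the knockout detected 6 and 7 regions and WT MDP 12 and 13, and at Csf1r 3 and 3 against 3 and 5. Whether the MDP gate holds the same mix of cells in both genotypes was not tested, and a gain in a few cells cannot be told apart from a weak gain in many.

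MicroRNA genes were no more frequent near members than near other regions, with 30 members (1.49%, 1.05 to 2.12) and 1.43% of all regions within 10 kb of a hairpin. A single member overlapped hairpins, the one inside Nlrp12 (chr7:3220146-3220789), which held all or part of Mir293, Mir294 and Mir295, of a cluster known from embryonic stem cells. It stood at 80.6% and 65.9% of the rows of the knockout lists, and the nearest WT peak was 1.12 kb away. Mir223, whose nearest member did not reach the hairpin and which was singled out after its values were seen, is a myeloid microRNA known for its part in granulocyte development. Its mature sequences are given from RefSeq with the seed (bases 2 to 8) in capitals, to show which product the locus encodes.
mmu-miR-223-5p: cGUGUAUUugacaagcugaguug
mmu-miR-223-3p: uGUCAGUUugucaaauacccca
The hairpin lies on chromosome X, and 10 merged regions lay within 20 kb of it. Both knockout libraries detected 6 of them, WT MDP libraries 5 and 4, both CDP libraries 7, both LMPP libraries 5, and LT-HSC libraries 1 and 4. Members stood 19.04 kb (chrX:96223088-96223774) and 6.37 kb (chrX:96235802-96236445) before the hairpin. A region over the hairpin (chrX:96242282-96243124) was detected in both LMPP, both CDP and both knockout libraries, and in neither WT MDP nor LT-HSC library. Regions at 14.8 and 13.5 kb were present in the 4 WT libraries of MDP and CDP and absent from both knockout lists.

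The libraries behind these lists were of like depth between the 2 MDP genotypes and differed in other respects. Total tags were 4790046 and 5313729 in the knockout and 5394861 and 5328234 in WT MDP, and up to 10166833 (CDP) over all libraries. Lists held 50728 and 54277 peaks in the knockout, with 43.7% and 43.9% of tags within peaks, and 62130 and 64515 in WT MDP, with 51.3% and 53.7%. LT-HSC replicate 1 stood apart with 31325 peaks and 19.3%. Without it the rule found 2019 regions. Requiring only 1 knockout list raised the count to 4181 without replicate 1 and to 3266 without replicate 2, and leaving out WT MDP replicate 1 or replicate 2 gave 2357 or 2565.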

How the data were processed

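One peak list in mm10 coordinates was deposited per library. Bowtie 1.1.2 and HOMER 4.9 were used, per the submitters' processing notes. Per the file headers, HOMER called peaks without a control, with 500 bp peaks, a false discovery rate of 0.001 and 4-fold local enrichment. For a shift of reads to the transposase cut, nothing is given in the sources used here. The score the authors deposited is 1 in every row, and no tag counts per peak are given, so detection and row order were described and no count model was used. Groups follow the titles, since the LMPP libraries carry a cell type label of another stem cell stage. With 2 libraries per group and no label on animals, spreads may be technical.

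Merging, distances and gene assignment were done in Python 3.11.15 (pandas 2.3.3), and checked on simulated peaks. Gene spans came from RefSeq (GRCm38.p6, 21631 protein-coding genes). Start sites and windows came from a RefSeq promoter table without chromosome 18 and without some genes, so gene ends were kept as the main measure in place of start sites, and motifs were searched in promoter windows, not around every centre. Of 332 listed genes, 331 matched. Wilson and Newcombe 95% intervals (statsmodels 0.14.6) cover counting error only. The genes named were those with the 12 earliest members, the 12 with most members, up to 3 per list, fixed factor and sort genes, the widest member and covered start sites; not all are described. The regions and lists were chosen with earlier results of these data known. Alternatives changed merging, list length, thresholds, distances and the libraries used.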

Additional observations from a re-analysis of the deposited data

How the results depend on the processing

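The count of 2014 stayed within 1.5 times under 13 of 16 alternatives: 1980 with peaks merged within 200 bp, 2057 with 50% shared peaks, 2133 with lists of equal length, 1668 with no WT peak within 1 kb, and 2099 without both LT-HSC libraries. It was 176 with the first 50% of each knockout list. Leaving out 1 library gave 2019 to 4181, and the values of 3266 and 4181 were those without a knockout library. With equal lists, the median row position was 44.7%, 91.1% of members were over 1 kb from a WT peak and the median width was 707 bp. With the first 50% of the knockout lists, these were 39.5%, 89.2% and 781 bp. Both settings cut the later rows of the knockout lists, so the earlier row positions were in part fixed by the cut. The median width was 619.5 bp with peaks merged within 200 bp, 501 bp with 50% shared peaks and 618.5 bp with no WT peak within 1 kb, where 100% were over 1 kb away by construction. Over left-out libraries, row position ranged from 71.3% to 81.4%, the share over 1 kb from a WT peak from 80.6% to 83.6%, width from 501 to 627 bp, the share at gene ends from 3.53% to 4.38%, and the share of windows with TTGCNNAA from 24.2% to 32.5%; under the other settings of the rule it was 27.1% to 40.0%, and 22.6% when the 200 bases before the start site were searched. Within 2.5 kb of a gene end lay 9.38% of members, a gene within 20 kb was found for 73.3%, and the palindrome TTGCGCAA was in the windows of 3.23% of the genes. Of the list entries, 48 had a member within 100 kb and 36 within 20 kb. No paired analysis was possible because the labels tie no library of one group to a library of another, and counts over regions have no fit that a replicate block could enter. A search around each centre was not run, since sequence was at hand for promoter windows alone. The lists give no tag counts per peak, so the precision of a single detection is unknown.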
